A study of Mus musculus with 4 samples.

Results

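Transcripts of the EGF receptor family were counted in lung adenocarcinomas of KP mice, in which tumours arise after Cre recombinase is delivered to the lung. The genes described here are the 4 receptors Egfr, Erbb2, Erbb3 and Erbb4, the 5 ligands Areg, Ereg, Hbegf, Tgfa and Btc, and the inhibitor Errfi1. They were chosen by symbol from a table of 39017 genes, in which all 10 were present, and 9 of the 10 passed the filter of a mean of at least 1 CPM (counts scaled to 1000000 of the TMM effective library size), as did 14225 genes in all. The study asked which glucose transporters such tumours need. The 4 libraries used here are all of 1 group, control tumours, so no conditions can be compared. What can be measured is the level of each gene and its spread over tumours.

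The 4 tumours came from male C57BL/6 KP mice that carry floxed Trp53 alleles and a Cre-activated oncogene. Each mouse was given 1500 units of a lentivirus expressing Cre from the ubiquitous PGK promoter into the trachea, and after 22 weeks and 5 days tumours were macrodissected and made into single-cell suspensions. By the methods, RNA came from bulk tumours or from fractions depleted of immune cells. The study's bulk KP set had 4 samples. The genotype at the locus the study deletes is not clear: the labels give a heterozygous floxed allele without a gene name, the deposited log2 table marks all tumours WT, and by the study's methods a control could be wild type or carry 1 floxed Slc2a1 allele. Nothing in the labels says whether the tumours came from separate mice, so the tests below measure the spread between these 4 libraries. Total counts lay between 8151613 and 8799007, and 3 counts, the limit taken for a count of 0, were 0.330 to 0.370 CPM. The epithelial genes Epcam and Cdh1 and the alveolar type 2 genes Sftpc and Sftpb were abundant in every tumour, with at least 218 CPM of Epcam and 17722 CPM of Sftpc.

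Receptors of this family are tyrosine kinases that pair on the cell surface. Egfr and Erbb4 bind ligands and signal on their own, Erbb2 has no known ligand and is the preferred partner of the others, and Erbb3 binds neuregulins but has little kinase activity and signals through its partner. The ligands are made as membrane proteins and released by Adam17 and Adam10. Errfi1, also called Mig6, binds the kinase domain of active receptors and shuts it off, and its transcription is itself raised by growth factor signals. In the lung these receptors act in epithelial repair, and several of the ligands are known targets of growth factor signalling themselves.

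Erbb3 and Erbb2 made up nearly all receptor transcripts, Egfr was at the low end of the genes measured, and Erbb4 was not detected. Among the ligands Areg was the most abundant per length in 4 of 4 tumours, and Errfi1 was close to it. Ereg had a 3.47-fold range between tumours, which rests on its low value in tumour 3, and Egfr, Erbb2, Ereg and Hbegf each had their lowest value in tumour 3. The share of all genes lowest in tumour 3 is not given here, so this count does not set the 4 apart.

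Start-site sequences are shown for the genes at both ends of that order, Areg and Errfi1 as the most abundant per length and Egfr as the least abundant one detected. RefSeq promoters (GRCm38.p6, 250 bases before to 50 after a start) were found for 7 of the 10 genes (not Erbb3, Ereg or Hbegf), with 8 starts. They were searched on both strands for TGACGTCA (the palindromic cyclic AMP response element), TGANTCA (the AP-1 element) and TATAAA (the TATA box), which do not overlap one another in these promoters. Areg and the downstream start of Errfi1 each held TGACGTCA and TATAAA on the plus strand, and the other 6 starts, which belong to Egfr, Erbb2, Erbb4, Tgfa, Btc and the upstream start of Errfi1, held none of the 3. Of 32851 promoters of the same length, TGACGTCA was in 1.79%, TGANTCA in 7.81%, TATAAA in 13.6%, and the first and the last together in 0.170%. In the windows below, which run from 85 bases before to 30 after the start, capitals mark the 2 elements.
Areg, chr5:91139514-91139628, plus strand: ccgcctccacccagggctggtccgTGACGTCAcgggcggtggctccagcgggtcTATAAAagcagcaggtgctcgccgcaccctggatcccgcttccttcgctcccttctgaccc
Errfi1, downstream start, chr4:150854985-150855099, plus strand: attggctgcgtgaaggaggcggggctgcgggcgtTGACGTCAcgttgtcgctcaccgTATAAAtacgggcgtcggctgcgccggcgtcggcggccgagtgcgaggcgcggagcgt
Egfr, chr11:16752118-16752232, plus strand: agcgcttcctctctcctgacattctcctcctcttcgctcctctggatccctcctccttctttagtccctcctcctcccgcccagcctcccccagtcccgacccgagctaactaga
TGACGTCA began 61 bases before the start in Areg and 51 before it in Errfi1, and TATAAA began 31 and 28 bases before it. The counts are per gene and cannot tell which of the Errfi1 starts was used. A match in letters is a description of the sequence and no evidence that a factor binds there.

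Egfr (ENSMUSG00000020122), the receptor that Areg, Tgfa and the other ligands bind, lies on chromosome 11 at 16752203 to 16918158 (GRCm38, plus strand) and has 28 exons in its longest transcript. It had 39, 34, 14 and 23 counts in the 4 tumours in order, which is 4.29, 3.95, 1.73 and 2.74 CPM (mean 3.18 ± 1.17, SD, n = 4). Tumour 3 was lowest and tumour 1 highest, and exact Poisson 95% intervals of those values, 0.945 to 2.90 and 3.05 to 5.87 CPM, did not overlap. Reads carried no molecular identifiers, so such intervals cover counting error only. The highest value was 2.48 times the lowest, and Egfr ranked 12436 of 14225 genes by mean CPM. Its variation passed the chi-square test against counting noise (adjusted p 0.017), and without tumour 3 it did not, with an SD of log2 CPM of 0.34 in place of 0.58.

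Erbb2 (ENSMUSG00000062312), the partner receptor without a ligand, lies on the same chromosome at 98412470 to 98437716 (plus strand, 27 exons). Its values were 104, 84.4, 46.3 and 83.0 CPM in the order of tumours 1 to 4, with 375 to 947 counts behind them (mean 79.5 ± 24.2, SD, n = 4). Tumour 3 was again lowest, and tumours 2 and 4 were nearly equal. The range was 2.25-fold and the variation passed the test (adjusted p 1.1e-38). Without tumour 3 the SD of log2 CPM fell from 0.50 to 0.18, and without tumour 1 or tumour 3 the range was not over 2-fold, while the test was passed in both cases. Erbb2 shares 9 exonic bases with Mien1 on the opposite strand, and the strand setting of the counting was not stated.

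Erbb3 (ENSMUSG00000018166), the neuregulin receptor with little kinase activity, lies on chromosome 10 at 128567523 to 128589652 (minus strand, 28 exons). It was the most abundant of the receptors with 219.7, 278, 220.5 and 294 CPM (mean 253 ± 38.7, SD, n = 4). Tumours 1 and 3 had nearly the same low value and tumours 2 and 4 the higher ones, in a range of 1.34-fold (adjusted p 9e-32 in the chi-square test). Erbb3 ranked 648 of 14225 genes by mean CPM.

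Erbb4 (ENSMUSG00000062209), a neuregulin receptor on chromosome 1 at 68032186 to 69108059 (minus strand, 27 exons), had 0 counts in each of the 4 tumours. Per length this allows at most 0.0267 to 0.0300 CPM per kb of exon. The lowest Egfr value, in tumour 3, was 0.153 CPM per kb.

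Within the receptors the balance was uneven in every tumour. Erbb3 made up 64.2, 73.6, 80.2 and 75.2% of the summed CPM per kb of the 4 receptors in tumours 1 to 4 (mean 73.3 ± 6.70%, SD, n = 4), where kb is the merged exon length of the gene. Erbb2 made up 35.1, 25.8, 19.4 and 24.5% (mean 26.2 ± 6.55%, SD, n = 4). Egfr made up 0.666, 0.556, 0.334 and 0.371%. Tumour 1 therefore had the lowest share of Erbb3 and the highest of Erbb2, and tumour 3 the reverse. The ratio of Erbb3 to Erbb2 per kb was 1.83, 2.85, 4.13 and 3.07. The ratio of Erbb2 to Egfr was less spread, with 52.8, 46.5, 58.2 and 66.0, since both were low in tumour 3. The summed level of the receptors ranged over 1.43-fold, from 45.7 CPM per kb in tumour 3 to 65.1 in tumour 4.

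**Figure D1:**
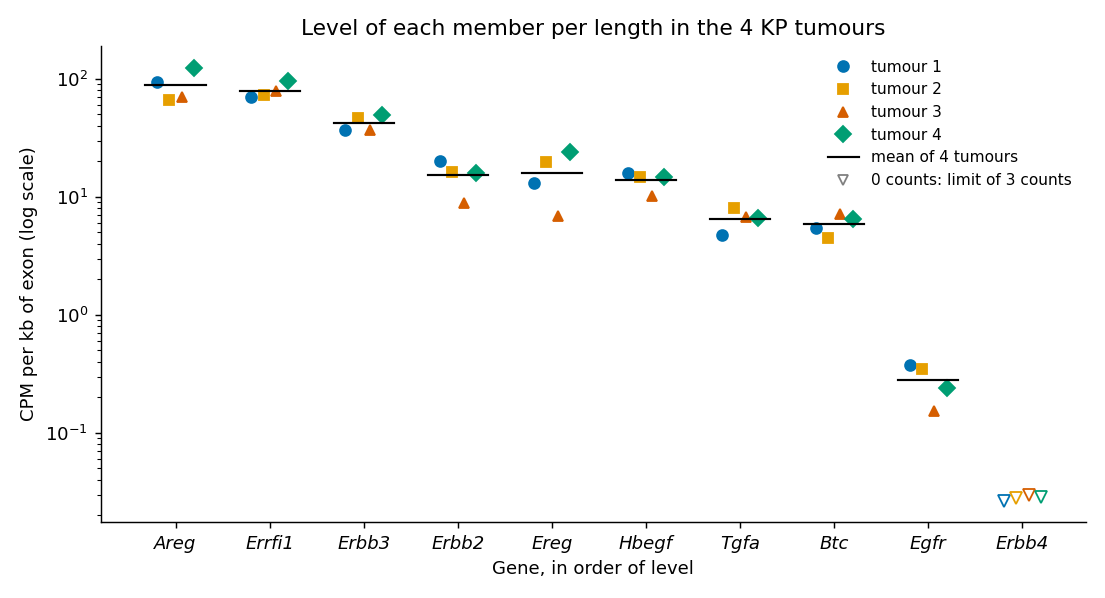
Level of each gene in CPM per kb of merged exon (log scale) in the 4 tumours, ordered by the mean of log2 values; points are tumours, bars the mean of the 4, and open triangles the limit that 0 counts allow for Erbb4. Areg, Errfi1 and Erbb3 lie highest, from 36.5 to 125 CPM per kb, and Egfr lies between 0.153 and 0.379.

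Areg (ENSMUSG00000029378) encodes amphiregulin, a ligand of Egfr, and lies on chromosome 5 at 91139599 to 91148432 (plus strand, 6 exons). Its values were 113, 80.4, 85.0 and 151 CPM in tumours 1 to 4 (mean 108 ± 32.7, SD, n = 4). Tumour 4 was highest and tumours 2 and 3 were low and close to each other. The range was 1.88-fold and the variation passed the test (adjusted p 8.3e-53). With a merged exon length of 1215 bases, the shortest of the 10 genes, Areg had 88.5 ± 26.9 CPM per kb (SD, n = 4), rank 485 of 14100 genes with a length.

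Ereg (ENSMUSG00000029377) encodes epiregulin, which binds Egfr and Erbb4, and lies beside Areg at 91074622 to 91093646 (plus strand, 5 exons). It had 493, 696, 231 and 832 counts in the 4 tumours in order, which is 54.2, 80.8, 28.5 and 99.0 CPM (mean 65.6 ± 30.8, SD, n = 4). Tumour 3 was lowest and tumour 4 highest, and the Poisson intervals of the 4 values did not overlap. The SD of log2 CPM was 0.79, rank 1401 of 14225 genes, and the chi-square test gave an adjusted p of 2.4e-76. The 4744 genes within 2-fold of its mean CPM had a median SD of 0.23. Without tumour 3 the SD of Ereg was 0.44, next to 0.46 for Areg, and its range was no longer over 2-fold, while the test was still passed. Ereg shares 141 exonic bases with the antisense gene Gm19610, which is not among the genes counted, so without a stated strand setting some of its reads could belong there.

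Hbegf (ENSMUSG00000024486) encodes heparin-binding EGF-like growth factor, a ligand of Egfr and Erbb4, and lies on chromosome 18 at 36504927 to 36515805 (minus strand). It had 76.9, 71.2, 49.1 and 70.8 CPM (mean 67.0 ± 12.2, SD, n = 4). Tumours 1, 2 and 4 were close together and tumour 3 was below them. The variation passed the test with an adjusted p of 1.7e-11, a result that rests on tumour 3, since without it the SD of log2 CPM fell from 0.29 to 0.07 and the test was not passed.

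Tgfa (ENSMUSG00000029999) encodes transforming growth factor alpha, a ligand of Egfr, and lies on chromosome 6 at 86195223 to 86275719 (plus strand, 6 exons). Its values were 31.1, 52.0, 44.1 and 42.7 CPM (mean 42.5 ± 8.61, SD, n = 4). Here tumour 1 was lowest and tumour 2 highest, in a range of 1.67-fold (adjusted p 1.2e-09 in the chi-square test). It shares 118 exonic bases with Gm43917 on the opposite strand, which is not among the genes counted.

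Btc (ENSMUSG00000082361) encodes betacellulin, a ligand of Egfr and Erbb4, and lies on chromosome 5 at 91357261 to 91402994 (minus strand, 5 exons), the same region as Areg and Ereg. It had 24.5, 20.4, 32.1 and 29.4 CPM (mean 26.6 ± 5.16, SD, n = 4). Btc had the lowest mean per length of the 5 ligands, though it was above Tgfa in tumours 1 and 3, and it was the one gene of the 10 with its highest value in tumour 3 (adjusted p 2.6e-05 in the chi-square test). The ratio of Btc to Ereg per kb was 0.413, 0.231, 1.03 and 0.271, so that in tumour 3 alone Btc was not below Ereg.

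Areg held most of the ligand transcripts per length in each tumour, with 70.3, 58.5, 69.3 and 70.7% of the summed CPM per kb of the 5 ligands (mean 67.2 ± 5.82%, SD, n = 4). Ereg held 9.92, 17.3, 6.84 and 13.6% (mean 11.9 ± 4.54%, SD, n = 4). Hbegf held 12.01, 13.0, 10.1 and 8.30% (mean 10.9 ± 2.10%, SD, n = 4). Tumour 2 had the lowest share of Areg and the highest of Ereg. Tgfa and Btc held 3.62 to 7.10% and 3.69 to 7.03%, both with their low and high ends in different tumours. The ratio of Areg to Ereg, neighbours on the chromosome, was 7.09, 3.38, 10.1 and 5.20. The summed level of the 5 ligands was 132, 113, 101 and 176 CPM per kb, highest in tumour 4 and lowest in tumour 3 (1.75-fold). With the length of the longest transcript in place of the merged exons, the mean share of Areg was 61.1% and that of Hbegf 16.4%.

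**Figure D2:**
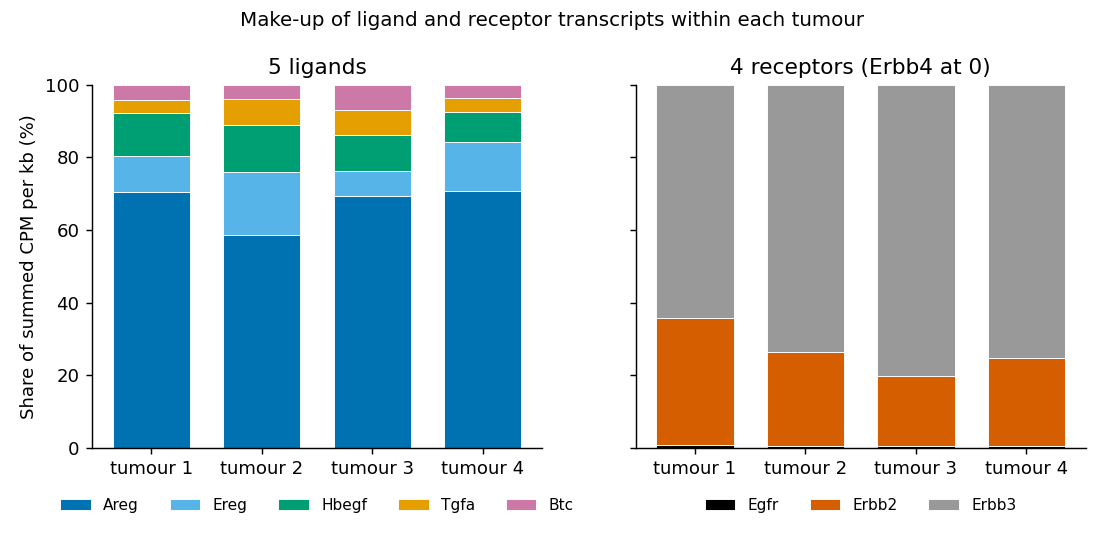
Share of the summed CPM per kb (percent) held by each ligand (left) and each receptor (right) in each of the 4 tumours, as stacked bars that start at 0. Areg fills 58.5 to 70.7% of the ligand bars, and Erbb3 fills 64.2 to 80.2% of the receptor bars.

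Errfi1 (ENSMUSG00000028967), the inhibitor, lies on chromosome 4 at 150853919 to 150868892 (plus strand, 4 exons). It had the highest mean CPM of the 10 genes, although Erbb3 was above it in tumour 2, with 250.2, 260.1, 282 and 347 in the 4 tumours in order (mean 285 ± 43.3, SD, n = 4) and at least 2239 counts in each. Tumours 1 to 3 were close together and tumour 4 was highest. Its SD of log2 CPM was 0.21, rank 9769 of 14225, and was 0.09 without tumour 4, and its range of 1.39-fold passed the test (adjusted p 1.2e-35). Set against the receptors it restrains, Errfi1 had 3.49, 4.48, 8.86 and 6.07 times the CPM per kb of Erbb2. The ratio to Egfr ran from 184 in tumour 1 to 516 in tumour 3, where Egfr rested on 14 counts.

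In the order of mean log2 CPM per kb, Areg came first, followed by Errfi1, Erbb3, Erbb2, Ereg, Hbegf, Tgfa, Btc, Egfr and Erbb4. Neighbours were compared within tumours, by flipping the signs of their log2 differences (exact permutation test, two-sided, adjusted over the 9 pairs). With 4 tumours the smallest p is 0.125, so no pair could pass 0.05. The pairs were set by the order of these same values, and that p follows whenever all 4 signs agree. It therefore adds nothing to the count of tumours. The order held in 4 of 4 tumours for Errfi1 over Erbb3 (log2 difference 0.92 ± 0.19, SD), Erbb3 over Erbb2 (1.51 ± 0.49), Hbegf over Tgfa (1.08 ± 0.49) and Btc over Egfr (4.43 ± 0.84), each with the smallest exact p and an adjusted p of 0.225. Egfr was likewise above Erbb4 in 4 of 4 tumours, where no difference in size can be given because Erbb4 had no counts. Each of the 4 differences given was larger than its SD over tumours.

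The remaining 4 neighbour pairs kept their order in only 2 of 4 tumours. Areg and Errfi1 differed by 0.12 ± 0.31 on the log2 scale (SD, n = 4, exact permutation p 0.5). Erbb2 and Ereg differed by 0.03 ± 0.55, Ereg and Hbegf by 0.07 ± 0.59 and Tgfa and Btc by 0.15 ± 0.46, each with an exact permutation p of 0.875. These differences were smaller than their spread, so Areg cannot be placed above Errfi1, nor can Erbb2, Ereg and Hbegf be ordered, nor Tgfa and Btc. Length matters for this order, since with the longest transcript Areg fell below Errfi1 by 0.12 and Ereg below Hbegf by 0.67.

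**Figure D3:**
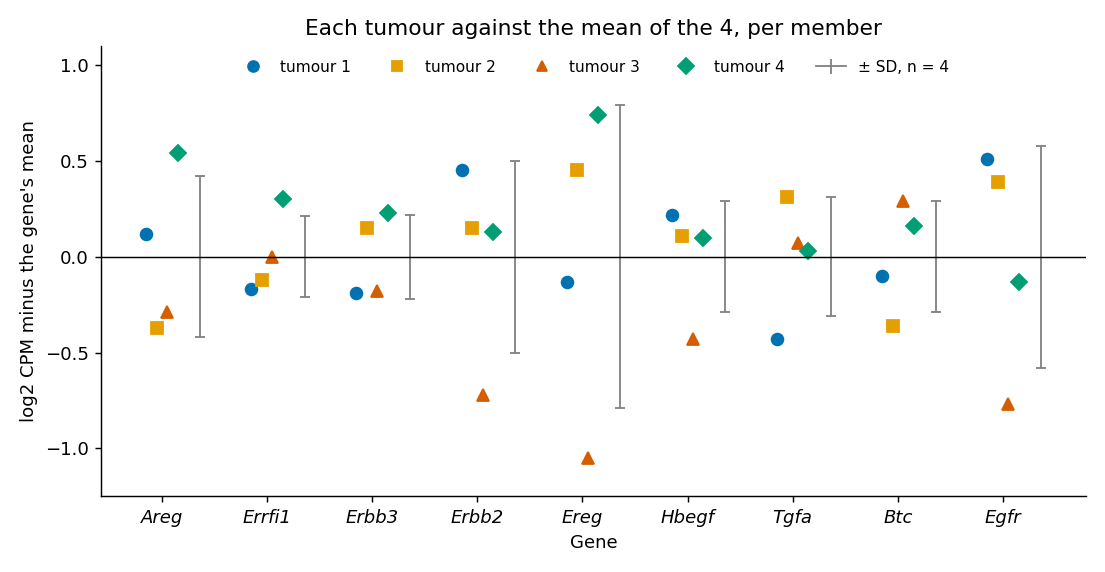
Log2 CPM of each tumour minus the gene's mean over the 4 tumours, for the 9 genes that passed the filter; grey bars are ± SD (n = 4). Tumour 3 is the lowest point of Egfr, Erbb2, Ereg and Hbegf and the highest of Btc, and tumour 4 is the highest point of Areg, Errfi1, Erbb3 and Ereg.

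All 9 genes tested varied between tumours beyond counting noise at an adjusted p under 0.05, where 76.7% of all 14225 genes did, so passing this test does not set them apart. Erbb2, Egfr and Ereg had a range over 2-fold, 3 of 9, against 28.5% of all genes. The median SD of log2 CPM was 0.31 for the 9 genes and 0.29 for all genes tested, and the median range was 1.67-fold and 1.58-fold. Without tumour 3 none of the 9 had a range over 2-fold and 7 passed the test, and the shares of all genes were then 16.5% and 62.4%. Lowest values fell in tumour 3 for 4 genes, in tumour 1 for 3 (Erbb3, Tgfa and Errfi1) and in tumour 2 for 2 (Areg and Btc). Tumour 4 held 4 of the highest values and none of the lowest. The shares of all genes lowest or highest in each tumour are not given here, so these counts do not set the 9 genes apart. In the pathway lists below, tumour 3 was lowest for 1 of 3 tested ligands and 3 of 5 genes of ligand release. It was also lowest for 6 of 10 adaptors and proximal signalling genes and 4 of 15 genes of receptor restraint and turnover.

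**Figure D4:**
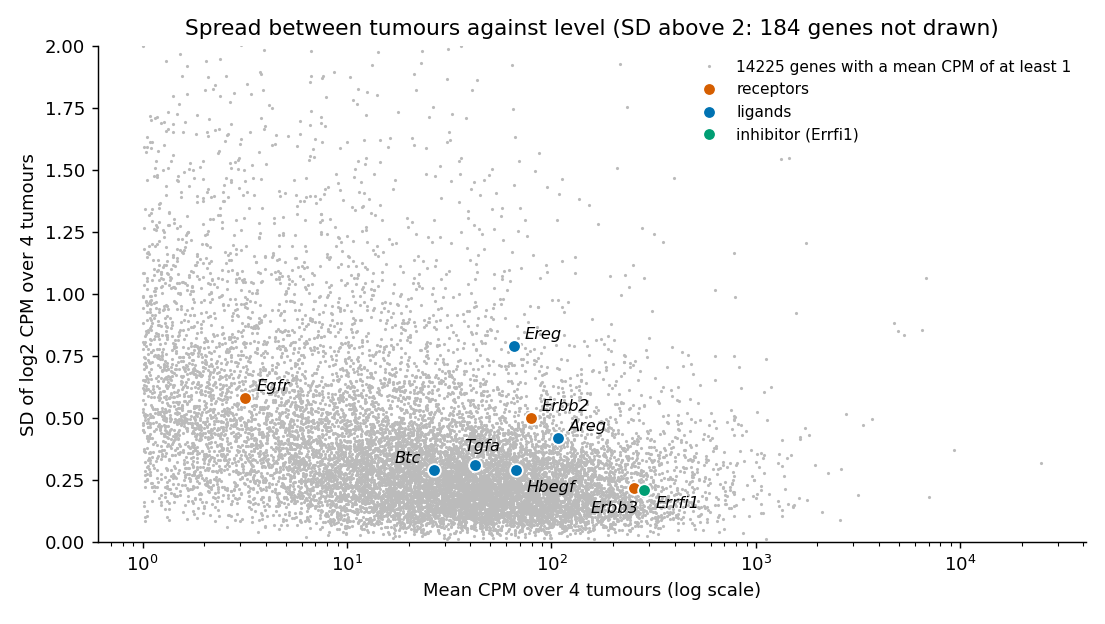
SD of log2 CPM over the 4 tumours against mean CPM (log scale) for the 14225 genes tested (grey; 184 genes with an SD above 2 are not drawn), with receptors, ligands and Errfi1 marked. Ereg, at 0.79, stands above the median of 0.23 of genes at its level, while Egfr, at 0.58, is near the 0.50 of genes as scarce as itself.

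The cell make-up of the tumours also differed, and in bulk RNA fewer cells of a type cannot be told apart from less RNA of a gene per cell. In tumour 3, where 4 of the genes were lowest, all 4 alveolar macrophage genes were at their highest, and their summed CPM was 901 there against 152 to 415 in the others. Of 6 pan-leukocyte genes, 5 were highest in tumour 3, with Ptprc at 83.4 CPM against 26.2 to 38.5, although the sum of that list ranged only from 548 to 873. Epcam was lowest in tumour 3, at 218 CPM against 371 to 600.3, whereas Cdh1, an epithelial gene too, stayed between 842 and 887. Tumour 3 also had the lowest sum of the 5 epithelial genes, 2659.6 CPM, close to the 2741 and 2819 of tumours 2 and 4, and tumour 1 had 4429.5. Only 1 of those 5, Epcam, was lowest in tumour 3, while 3 of them, Krt8, Krt18 and Krt19, were lowest in tumour 2. The part of these differences in the receptor and ligand values was not tested.

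Tumour 1, lowest in Tgfa and Errfi1 and level with tumour 3 in Erbb3, differed in lineage genes. The airway club cell genes summed to 36.4 CPM there and to 521 to 878 in the others, and 6 of 8 alveolar type 2 genes were lowest in it, with sums of 31527 CPM against 51367 to 58636. The squamous genes Krt14 and Krt6a reached 21.02 and 7.70 CPM in tumour 1 and at most 0.833 in the others, while Dsg3 had 0 counts in all 4, Krt5 had 4, 1, 2 and 2 counts, and Trp63, a basal cell factor, had 0, 1, 3 and 9, with none in tumour 1. Keratins of simple epithelium were highest in it too, Krt8 at 1261 CPM against 589 to 676. Their part in the values of the 3 genes was not tested.

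The other marker lists are given by their range. Macrophage genes summed to between 191 and 285 CPM and neutrophil genes to between 27.5 and 66.6. T cell genes summed to between 6.16 and 22.1 CPM and endothelial genes to between 180 and 244. Each of these sums was highest in tumour 3. Highest there were 4 of 6 macrophage, 3 of 5 neutrophil, 3 of 4 tested T cell and 3 of 5 endothelial genes. The macrophage genes C1qa and C1qb were lowest there, and the endothelial genes Cdh5 and Kdr were highest in tumours 1 and 2. Fibroblast genes summed to 325 to 568 CPM, alveolar type 1 genes to 1097 to 1969 and ciliated genes to 16.7 to 33.9. Of the mast cell and basophil genes, Cpa3, Fcer1a and Ms4a2 were at or under 3 counts, and the basophil protease Mcpt8 ran from 2.53 to 22.4 CPM. Early response genes, which dissociation can raise and which growth factor signals also induce, summed to 194 to 244 CPM, with 7 of 10 highest in tumour 1. Proliferation genes summed to 373 to 565 CPM, with 5 of 6 highest in tumour 1 and 5 of 6 lowest in tumour 4.

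Of 36 other genes of the receptor pathway, 33 were tested and 30 passed the test of variation (90.9%, against 76.7% of all genes tested), with a median SD of log2 CPM of 0.22, against 0.29 of all genes. A range over 2-fold was found for 4 of the 33, against 28.5% of all genes. The counts per list below stand against the same 2 shares of all genes. The share that passes and the SD both change with level. Of genes within 2-fold of Egfr in mean CPM, 56.7% passed, with a median SD of 0.50. Near Btc 78.6% passed (median SD 0.26), and near Errfi1 97.7% (0.22). Most of the 33 lay between Btc and Errfi1 in level, so the comparison with all genes does not set them apart. The spread was largest among the other ligands. Epgn, which encodes epigen and lies in the same region as Areg and Ereg, had 6.60, 2.44, 2.96 and 0.833 CPM (7.93-fold, adjusted p 6.1e-10 in the chi-square test). Nrg1, a neuregulin that binds Erbb3 and Erbb4, had 6.16, 1.51, 1.36 and 1.31 CPM (4.71-fold, adjusted p 8.4e-12). Both were highest in tumour 1. Egf itself was at 7.70, 10.2, 7.28 and 8.80 CPM and did not pass the chi-square test (adjusted p 0.18). Nrg4 was under 1 CPM, and Nrg2 and Nrg3 had 0 counts, where the limit of 3 counts is up to 0.370 CPM.

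Of the 5 genes of ligand release 5 passed the test and 0 exceeded 2-fold, where 76.7% and 28.5% of all genes did. Among genes averaging at least 10 CPM, as all 5 do, the shares were 85.3% and 17.2%. The proteases Adam10 and Adam17 had 267 ± 35.4 and 126 ± 13.2 CPM (SD, n = 4). Rhbdf1 and Frmd8, which act in the maturation and surface stability of Adam17, had the largest SDs of log2 CPM, 0.36 and 0.24. Rhbdf1 was lowest in tumour 3, at 24.2 CPM against 33.7 to 42.3.

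Among 10 adaptors and proximal signalling genes 9 passed and 0 exceeded 2-fold. The shares were 76.7% and 28.5% of all genes, and 85.3% and 17.2% of genes averaging at least 10 CPM. Shc1, an adaptor of active receptors, and Plcg1, a phospholipase they phosphorylate, were the most abundant at 219 and 178 CPM. The kinase Src and the docking protein Gab2 varied most, with SDs of 0.34 and 0.32. Sos1, which loads Ras with GTP, did not pass (adjusted p 0.18).

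Of 15 genes of receptor restraint and turnover 14 passed and 2 exceeded 2-fold. The shares were 76.7% and 28.5% of all genes, and 85.3% and 17.2% of genes averaging at least 10 CPM. Usp8, a deubiquitinase acting on endocytosed receptors, and the endocytic adaptor Eps15 were the most abundant at 197 and 106 CPM, and both were highest in tumour 3. Lrig3, a transmembrane protein related to the receptor inhibitor Lrig1, had the largest SD, 1.11, from 4 to 21 counts. Cblc, a ubiquitin ligase of the Cbl family, followed with 0.45 and had 38.2 CPM in tumour 1 against 19.4 to 25.1. Hgs, an endosomal sorting protein, was the other gene over 2-fold (2.06-fold), with its lowest value in tumour 3. Rnf41, a ubiquitin ligase for Erbb3, varied least and did not pass, with 32.4, 34.5, 33.3 and 33.5 CPM (adjusted p 0.9). Sos1, Hgs and Rnf41 were picked out after their values were seen.

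**Figure D5:**
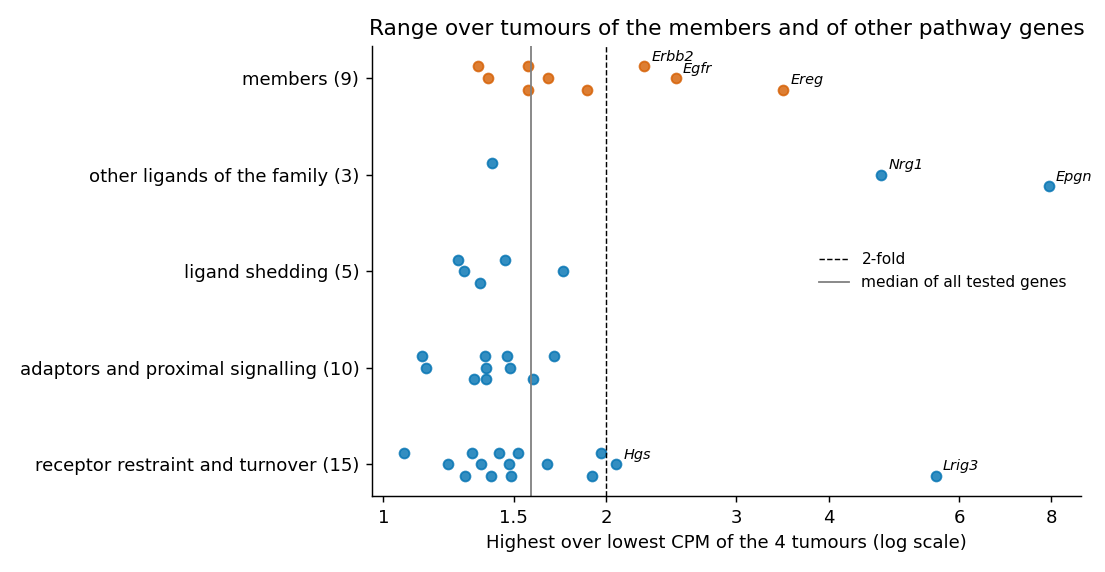
Highest over lowest CPM of the 4 tumours (log scale) for the 9 family genes tested and for 33 other pathway genes in 4 lists; the dashed line is 2-fold and the grey line the median of all genes tested, 1.58-fold. Ereg, Egfr and Erbb2 lie beyond the dashed line, as do Epgn, Nrg1, Lrig3 and Hgs.

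For the 3 members with the largest SD, genes with the most similar pattern were sought among genes averaging 10 CPM or more, as the root mean square difference of log2 CPM centred on each gene's mean over the 4 tumours. For Ereg these were Scel, which encodes sciellin of the cornified envelope (0.11), Sema4g, a semaphorin (0.139), and Fmo4, a flavin monooxygenase (0.145). Scel had 31.5, 49.0, 14.1 and 55.4 CPM, with the same order of tumours as Ereg. Only 8 of 10268 genes were within 0.2 of Ereg.

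Many more genes lay within 0.2 of Erbb2 and of Egfr than of Ereg. The difference is not scaled for spread, and Erbb2 and Egfr had smaller SDs (0.50 and 0.58) than Ereg (0.79). The counts therefore do not show which pattern is more common. For Erbb2, 563 of 10268 genes were within 0.2, among them Zfp867 (0.016) and Gltscr1 (0.032). For Egfr, 193 of 10269 genes were within 0.2, led by Sqle (0.007), Prkcsh (0.043) and Hyal2 (0.045). Sqle, an enzyme of cholesterol synthesis, had 65.3, 60.2, 26.7 and 42.2 CPM. The pattern of Egfr rests on 14 to 39 counts and carries the counting error of so few. With 4 tumours a likeness in pattern is a description of these libraries.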

How the data were processed

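RNA-seq counts of 4 tumours of 1 group were used. Per the labels and methods, the authors made stranded libraries of polyadenylated RNA from 500 ng of total RNA, trimmed single-end reads, aligned them to mm10 with HISAT2 and counted them per gene. Tools listed in the submitters' processing notes include Cutadapt 1.4.2 and featureCounts 1.4.4. The deposited counts are raw and not normalised. The log2 values the authors deposited (TMM and voom) served only as an alternative. One allele named in the labels and 1 gene that the naming rule picked are not reported here. The 10 genes and all lists were chosen with earlier results of these data known.

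CPM used TMM effective sizes (edgeR 4.0.16, R 4.3.3), and log2 CPM added 0.5 to counts and 1 to sizes. Each gene averaging at least 1 CPM was tested by a chi-square test of its 4 counts against Poisson expectations (3 degrees of freedom, Benjamini-Hochberg over 14225 genes, called under 0.05). The test was run on simulated Poisson counts, with fold changes set in 1 tumour for some genes. Such counts hold no other spread between libraries, so they do not show how the test behaves with it. This test compares libraries and cannot separate tumours from library preparation. Lengths and positions are GENCODE M21 (GRCm38). Other ligands were all named. In each other pathway list the 2 most abundant genes and the 2 with the largest SD were named, and 3 genes of most similar pattern for each of 3 members. Marker genes beyond the first 2 of a list were named after their values were seen. Near-identical copies (80 nt at 97% identity, BLAST 2.17.0) were found for Ereg and Tgfa only, in the opposite-strand genes named with them. Adgre1, Chil3 and Siglecf were matched by identifier. Alternatives were other scalings (DESeq2 1.42.0 size factors, library size), filters, added counts, gene lengths, DESeq2 dispersions and each tumour left out.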

Additional observations from a re-analysis of the deposited data

Results flagged for a closer look

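A tumour was far from the other 3 where its gap to the nearest of them over the whole range exceeded Dixon's 95% critical value for 4 samples. Of 37 values looked at (levels, shares and list sums), 6 exceeded it, where chance passes about 1 in 20, or 1.85 values. The values are not independent, since shares add up to a whole and all come from the same 4 libraries. The 2 numbers are therefore no test of an excess. Among the genes' own levels none did.

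The share of Areg among the ligands was low in tumour 2 (ratio 0.889), at 58.5% against 69.3 to 70.7%. The share of Btc was high in tumour 3 (0.877), at 7.03% against 3.69 to 4.10%. Of the cell type lists, the epithelial sum was high in tumour 1 (0.886) and the club sum low in it (0.835), and the T cell sum (0.896) and the endothelial sum (0.941) were high in tumour 3. Only 4 of 6 T cell genes passed the filter, and Cd2 gave 12.6 of the 22.1 CPM in tumour 3. Of the 5 endothelial genes, 3 were highest in tumour 3, with Pecam1 at 110 CPM against 70.5 to 78.6. Of the 5 epithelial genes, 4 were highest in tumour 1, while Cdh1 was lowest there, at 842 CPM against 846 to 887.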

How the results depend on the processing

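All 9 genes passed the test of variation under both other scalings, with no filter and by DESeq2 dispersions above 0.01, and 7 to 9 when 1 tumour was left out. Without tumour 3, Egfr and Hbegf no longer passed. The number of family genes over 2-fold was 0 without tumour 3 and 2 or 3 with another tumour left out (Erbb2 not without tumour 1), and that of all genes 2333 to 3581. With no filter 10680 genes (50.4%) were over 2-fold. At a mean CPM of at least 10, which leaves out Egfr and tests fewer genes, 1765 (17.2%) were.

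With 1 tumour left out, the log2 difference per kb of Erbb2 over Ereg ran from -0.17 (without tumour 1) to 0.23 and was -0.09 without tumour 3, that of Ereg over Hbegf from -0.14 (without tumour 4) to 0.28 and was -0.04 without tumour 2, and that of Tgfa over Btc from -0.08 (without tumour 2) to 0.26. With the length of the longest transcript, Areg over Errfi1 was -0.12, Ereg over Hbegf -0.67, Errfi1 over Erbb3 1.15, and the mean share of Areg 61.1%. The mean share of Hbegf was 16.4% with that length. SDs of log2 CPM that moved by over 1.5 times while the test was still passed were those of Ereg (0.79 to 0.44) and Erbb2 (0.50 to 0.18) without tumour 3, Tgfa (0.31 to 0.15) without tumour 1, and Areg (0.42 to 0.26) and Errfi1 (0.21 to 0.09) without tumour 4. No paired analysis was possible because the labels give 1 group. Depth limits Egfr, at 14 to 39 counts, and Erbb4, at 0.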
